A study of Mus musculus with 45 samples.

Results

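The comparison described here is the change in gene expression that wild-type (WT) mouse embryonic fibroblasts (MEFs) showed 1 h after an inflammatory stimulus, pooled over 3 stimuli. It used 6 of the 45 libraries of the study, chosen by their labels alone: the WT libraries at 0 h and at 1 h of an IL-1b series, a TNF series and an LPS series, each 1 h library set against the 0 h library of its own series. The cells were primary MEFs of strain C57BL/6, kept overnight in 0.5% bovine calf serum and then given 10 ng/ml IL-1b, 10 ng/ml TNF or 100 ng/ml LPS, and poly(A) RNA was sequenced. The design text calls WT a single replicate, littermate to the 2 p53-deficient lines (KO-1 and KO-2) that carry the same 3 series, so the 3 WT series are 3 stimuli on 1 line and the p-values below measure only the spread between these libraries. No untreated library at 1 h was analysed here, so the stimulus and whatever adding it to starved cells does by itself cannot be told apart. The labels give primary cultures, and no separate embryos or cultures for the 3 series.

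IL-1b, TNF and LPS bind the IL-1 receptor, the TNF receptors and Toll-like receptor 4. The 3 receptors use different adaptors and converge on the IKK complex, which frees NF-kB from its inhibitors, and on the MAP kinases, which act on transcription factors such as AP-1 and the partners of serum response factor. NF-kB then switches on chemokine, cytokine and adhesion genes together with its own inhibitors, and many of these transcripts are short-lived. Fibroblasts are tissue cells that recruit leukocytes in this way, and many genes that respond in the first hour need no new protein synthesis.

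The 6 libraries held 6448370 to 10602849 gene counts (median 9041204.5) and 16264 to 16872 genes with at least 1 count, and no libraries were identical. The ratio of chi-squared to its degrees of freedom between 0 h libraries, where 1 would be counting error alone, was 1.54 for IL-1b and LPS, 2.92 for IL-1b and TNF and 3.39 for LPS and TNF. Between 1 h libraries it was 3.85 to 5.28. Across the 15 WT libraries Trp53 ranged from 158 to 293 CPM, and it lay at 50.9 to 86.5 CPM in KO-1 and 53.9 to 83.1 CPM in KO-2, below every WT library. CPM, the usual depth-scaled unit, is a gene's count set against the library's gene total after TMM scaling, and the labels do not say which part of Trp53 is deleted. Fibroblast markers were abundant: Col1a1 had 11222, 12761 and 10629.6 CPM at 0 h and 10358, 12667 and 10041 CPM at 1 h, in the order IL-1b, TNF and LPS, which is kept throughout for values of 3 libraries. The 12 fibroblast markers summed to 34174 to 36470 CPM at 0 h and 35205 to 38512 CPM at 1 h. By the test given below, 5 of the 12 were called higher at 1 h and 3 lower, against 15.2% and 13.7% of all genes. Pecam1 and Cdh5 (endothelial), Epcam and Cdh1 (epithelial) stayed at or below 1.02 CPM, and Myod1, Hba-a1 and Hbb-bs had 0 counts. Other listed markers were present. At 0 h the neural markers summed to 169.5 to 188.7 CPM, the muscle markers to 32.4 to 38.1 CPM and the epithelial markers to 7.94 to 9.27 CPM. At 1 h the same sums were 182 to 222.9, 32.6 to 41.1 and 7.96 to 14.1 CPM. Called higher were 2 of 4 neural and 1 of 3 epithelial markers tested, against 15.2% of all genes. Macrophage markers were present, and their values are given with the LPS results.

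Of the 12518 genes that reached 1 CPM in 3 or more of the 6 libraries, 1907 (15.2%) were higher at 1 h and 1716 (13.7%) lower, 3623 (28.9%) in all, at an adjusted p under 0.05. The test was edgeR's quasi-likelihood test with the stimulus series as a block and Benjamini-Hochberg adjustment. Most of these changes were small: the median log2 change was 0.29 among the genes called higher and -0.32 among those called lower, against 0.0025 over all genes tested. At least 2-fold changes were called for 214 genes upwards (1.71%) and 130 downwards (1.04%), and 36 genes rose at least 8-fold. The 3 libraries at 1 h lay above all 3 at 0 h for 1639 of the genes called higher, and below them for 1511 of those called lower. The call itself favours such a separation, and its share over all genes tested is not given here, so these counts add no support. Without the IL-1b series the calls dropped to 1132 higher and 870 lower, and a DESeq2 Wald test of the same design called 681 and 327.

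The rises of at least 2-fold were then set out by series. The fit that called them takes its error from the spread between the series and, with more weight, from a trend over all genes. It had 2 residual and 18 prior degrees of freedom. Agreement between series is thus only in part a condition of the call. Of the 214 genes, 147 rose at least 2-fold in each of the 3 series by their own log2 values, and 11 rose less than 1.2-fold in at least 1 series. Their median log2 change was 1.63 in the IL-1b series, 1.67 in the TNF series and 1.56 in the LPS series. The series with the largest value of a gene was IL-1b for 106, LPS for 65 and TNF for 43. Of the 130 genes at least 2-fold lower, 42 fell at least 2-fold in each series. The genes with large falls were expressed at low levels, with a median of 3.45 CPM, against 22.4 CPM for the 214 and 28.9 CPM for all genes tested.

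All 28 listed immediate early transcription factors were called higher at 1 h, with a median log2 change of 1.73, against 15.2% called higher and a median of 0.0025 over all genes tested. The factor Egr4 passed the filter on low counts through its 1 h libraries alone. Nr4a1, an orphan nuclear receptor, had 51.2, 52.4 and 52.1 CPM at 0 h and 965, 763 and 861 CPM at 1 h. The 3 series lay close together at both times (log2 change 4.05, SE 0.0542, edgeR adjusted p = 2.72e-22), and the 2 groups were far apart. Fosb, an AP-1 subunit, had 5.41, 5.35 and 4.54 CPM at 0 h and 221, 148 and 200.5 CPM at 1 h (log2 change 5.23, SE 0.0832, edgeR adjusted p = 4.24e-21). Its TNF library was the lowest at 1 h, and still far above every 0 h library. Junb, its partner in AP-1 dimers, had 85.6, 98.5 and 84.5 CPM at 0 h and 577, 586 and 508 CPM at 1 h (log2 change 2.63, SE 0.0443, edgeR adjusted p = 8.4e-21). Atf3, a stress-induced repressor and activator of the CREB family, had 15.5, 12.1 and 13 CPM at 0 h and 276, 180.3 and 186 CPM at 1 h (log2 change 3.98, SE 0.0645, edgeR adjusted p = 5.39e-21).

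The zinc finger factors of the Egr family rose by different amounts. Egr1 had 377, 364 and 347 CPM at 0 h and 1356, 1134 and 1365 CPM at 1 h (log2 change 1.82, SE 0.0469, edgeR adjusted p = 1.47e-17), a high level before the stimulus. Egr3 had 4.67, 6.53 and 4.31 CPM at 0 h and 133, 108 and 121 CPM at 1 h (log2 change 4.56, SE 0.0988, edgeR adjusted p = 6.01e-19). Egr4 had 0, 0.131 and 0.113 CPM at 0 h, from 2 counts in the 3 libraries together, and 32.5, 22.3 and 18.4 CPM at 1 h from 605 counts. The ratio of scaled counts was 315, with a 95% interval of 86.9 to 2609 that covers counting error only. Egr4 was admitted by its 1 h libraries alone, so the interval is no test of its rise. Klf10, a TGF-beta-inducible Kruppel-like factor, had 27.2, 31.3 and 25.3 CPM at 0 h and 247, 257 and 191 CPM at 1 h (log2 change 3.04, SE 0.0554, edgeR adjusted p = 3.12e-20). The smallest rise of the list was that of Jund, a constitutive AP-1 subunit (0.25), and Srf itself rose by 0.57 and Myc by 1.18 on the log2 scale.

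**Figure D1:**
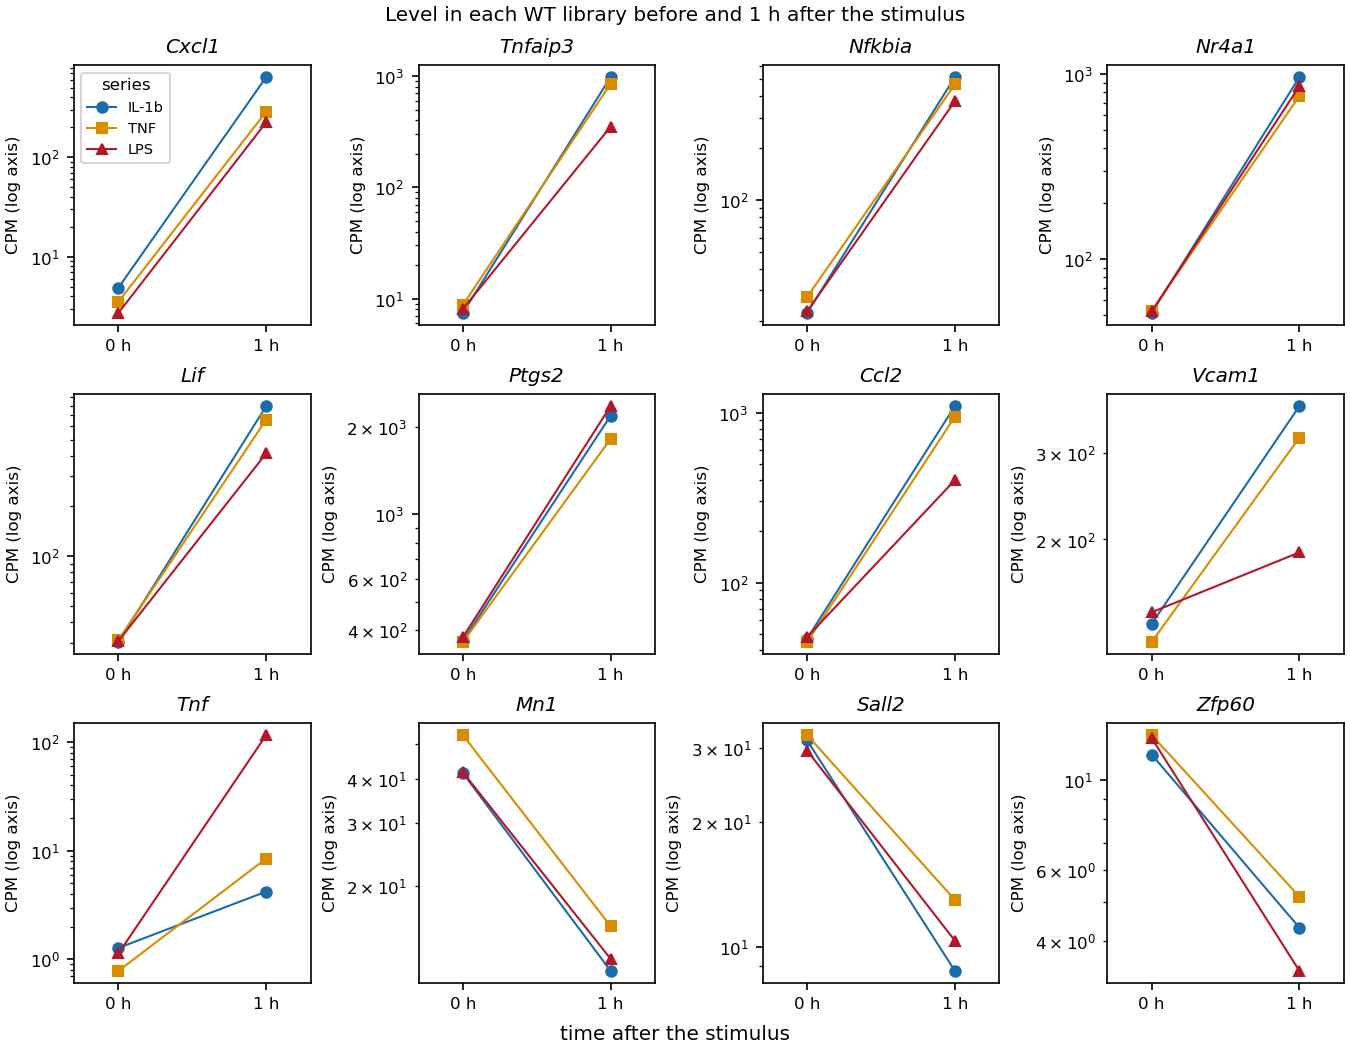
CPM on a log axis (the axis differs between panels) in each of the 6 WT libraries for 12 genes. Points are single libraries, and a line joins the 0 h and the 1 h library of a stimulus series. Nr4a1 and Ptgs2 rise alike in the 3 series, Ccl2 and Vcam1 least in the LPS series, Tnf most in the LPS series, and Mn1, Sall2 and Zfp60 fall in all 3.

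NF-kB genes rose, the inhibitors of the pathway among them. Of 23 listed subunits and feedback genes, 19 were called higher and 1 lower, with a median log2 change of 1.45, against 15.2% higher and 13.7% lower over all genes tested. Traf1, an adaptor of the TNF receptor family and among the 19, passed the filter through its 1 h libraries alone. Tnfaip3, which encodes the ubiquitin-editing inhibitor A20 (chr10:18720716-18735463 in mm9), had 7.43, 8.75 and 8.05 CPM at 0 h and 979.6, 851 and 351 CPM at 1 h (log2 change 6.46, SE 0.118, edgeR adjusted p = 3.12e-20). Its 1 h level was lowest in the LPS series. Nfkbia, which encodes the NF-kB inhibitor IkBa (chr12:56590398-56593634 in mm9), had 22.2, 27.4 and 22.7 CPM at 0 h and 516, 468 and 373 CPM at 1 h (log2 change 4.23, SE 0.0663, edgeR adjusted p = 3.77e-21). The other inhibitors Nfkbie and Nfkbib rose by 1.99 and 0.43 on the log2 scale. Nfkbiz, which encodes the nuclear co-regulator IkBz, had 31.6, 28.2 and 27.9 CPM at 0 h and 646, 146 and 356 CPM at 1 h (log2 change 3.65, SE 0.168, edgeR adjusted p = 3.91e-13), and its 3 series are taken up with the stimuli.

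Among the DNA-binding subunits, Rel rose by 1.56 and Relb by 1.45 on the log2 scale, Rela and Nfkb2 by 0.61 and 0.56, and Nfkb1 by 0.17. Ier3, a stress-inducible survival gene, had 54.8, 51.2 and 51.4 CPM at 0 h and 495, 308 and 482 CPM at 1 h (log2 change 3.02, SE 0.0751, edgeR adjusted p = 7.32e-18). The IAP ubiquitin ligase Birc3 rose by 1.66, while its relative Birc2 had a log2 change of 0.26 that did not pass (edgeR adjusted p = 0.0605). Cyld and Tnip2 did not pass either, at 0.032 and -0.13. Traf2, an adaptor of the TNF receptors, was the gene called lower (-0.24), a call lost under each left-out series.

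Factors that shorten the life of inflammatory transcripts rose too: 7 of 10 were called higher and 1 lower, with a median log2 change of 0.60, against 15.2% and 13.7% of all genes. Zfp36, which encodes the AU-rich element binding protein tristetraprolin, had 40.0, 40.6 and 42.6 CPM at 0 h and 535, 379 and 600.3 CPM at 1 h (log2 change 3.61, SE 0.0708, edgeR adjusted p = 9.97e-20). Zc3h12a, which encodes the endonuclease Regnase-1, had 8.28, 7.57 and 8.62 CPM at 0 h and 99.3, 63 and 50.4 CPM at 1 h (log2 change 3.11, SE 0.119, edgeR adjusted p = 1.46e-14). Btg2, an activator of deadenylation, had 134, 121 and 124 CPM at 0 h and 1152, 859 and 948 CPM at 1 h (log2 change 2.96, SE 0.0458, edgeR adjusted p = 3.75e-21). The groups did not overlap for any of the 3, which the call itself favours. N4bp1, which encodes a protein with a ribonuclease domain, fell (-0.39).

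Of 23 listed feedback genes of the MAP kinases and receptor kinases, 16 were called higher and 3 lower (median log2 change 0.91), against 15.2% and 13.7% of all genes. The phosphatase gene Dusp2, among the 16, passed the filter through its 1 h libraries alone. Errfi1, an inhibitor of the EGF receptor, had 189, 184 and 174 CPM at 0 h and 1542, 1452 and 1298 CPM at 1 h (log2 change 2.96, SE 0.0383, edgeR adjusted p = 2.04e-22). Dusp1, a MAP kinase phosphatase, rose by 1.89 on the log2 scale and Dusp5, a nuclear ERK phosphatase, had 43.5, 47.1 and 50.3 CPM at 0 h and 135, 137 and 145 CPM at 1 h (log2 change 1.56, SE 0.0504, edgeR adjusted p = 8.27e-16). Rgs16, which speeds up GTP hydrolysis by G proteins, had 47.8, 48.6 and 49.9 CPM at 0 h and 550.0, 418 and 380.3 CPM at 1 h (log2 change 3.19, SE 0.0701, edgeR adjusted p = 7.19e-19). Spry4 and Spry2 rose by 1.87 and 0.91, while Spry1, Spred1 and Spred2 fell by 0.38, 0.13 and 0.22. Dusp14 (-0.23), Rgs2 (0.15), Gadd45a (0.19) and Spred3 (-0.051) did not pass.

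Of 21 listed chemokines 15 passed the filter on low counts, 1 of them through its 1 h libraries alone. Of the 15, 14 were called higher, against 15.2% of all genes (median log2 change 2.08, the highest median of the pathway lists). Cxcl1, a neutrophil attractant (chr5:91320267-91322141 in mm9), had 4.88, 3.53 and 2.72 CPM at 0 h and 642, 288 and 225 CPM at 1 h (log2 change 6.7, SE 0.0829, edgeR adjusted p = 1.71e-22). The IL-1b library was the highest at 1 h, and the lowest of the 3 lay far above the highest at 0 h. Cxcl2, its neighbour with like function, had 0.212, 0.131 and 0.907 CPM at 0 h and 148, 83.7 and 116 CPM at 1 h. It was the chemokine that passed the filter through 1 h alone, so its values are given without a test. Ccl20, which attracts dendritic and Th17 cells through CCR6, had 4.67, 2.48 and 2.72 CPM at 0 h and 134, 105 and 42.7 CPM at 1 h (log2 change 4.79, SE 0.123, edgeR adjusted p = 1.24e-17).

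The monocyte attractants Ccl2 and Ccl7 rose together. Ccl2 had 46.8, 44.8 and 47.9 CPM at 0 h and 1092, 946 and 401 CPM at 1 h (log2 change 4.03, SE 0.149, edgeR adjusted p = 8.38e-15). Ccl7, next to it on chromosome 11, had 30.8, 30.4 and 35 CPM at 0 h and 332, 300.0 and 179 CPM at 1 h (log2 change 3.03, SE 0.11, edgeR adjusted p = 6.28e-15). Both were lowest at 1 h in the LPS series. Cxcl10, a CXCR3 ligand often used as a marker of interferon action, had 3.18, 2.35 and 1.81 CPM at 0 h and 57.3, 45.6 and 32.1 CPM at 1 h (log2 change 4.18, SE 0.12, edgeR adjusted p = 1.99e-16). Cxcl12, the homeostatic chemokine of stromal cells, was not called (-0.075). Ccl5, Ccl8, Ccl11, Cxcl3, Cxcl9 and Cxcl11 were too low to be tested, at no more than 2.05 CPM in any of the 6 libraries.

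Of 24 listed cytokines 16 were tested, 3 of them admitted by their 1 h libraries alone. Of the 16, 13 were called higher (median log2 change 1.57), against 15.2% of all genes. Lif, an IL-6 family cytokine, had 30.5, 31.3 and 30.8 CPM at 0 h and 795, 659 and 413 CPM at 1 h (log2 change 4.3, SE 0.0943, edgeR adjusted p = 7.19e-19). Il6 itself had 2.44, 2.22 and 2.61 CPM at 0 h and 31.4, 18.1 and 13.1 CPM at 1 h (log2 change 3.1, SE 0.182, edgeR adjusted p = 2.74e-11). Csf1, the macrophage growth factor, had 527, 525 and 531 CPM at 0 h and 1307, 1262 and 768 CPM at 1 h (log2 change 1.03, SE 0.0869, edgeR adjusted p = 1.04e-08). Its IL-1b and TNF libraries rose by 1.31 and 1.26 on the log2 scale, and its LPS library by 0.53.

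A few cytokines started from almost nothing. Csf2, which encodes GM-CSF, had 0 counts in the 3 libraries at 0 h and 74 counts at 1 h, 4.21, 3.33 and 1.69 CPM, at least 25.7-fold higher when 3 counts over the group are taken as the floor. Il1a had 1 count at 0 h and 71 at 1 h, a ratio of 74.0 with a 95% counting interval of 12.9 to 2963. Gm8818, a predicted gene chosen after its values were seen, had 0 and 88 counts, at least 30.6-fold higher. Csf2, Il1a and Gm8818 passed the filter on low counts through their 1 h libraries alone. Their ratios and the interval are thus a description and no test of a rise. Il1rn, the IL-1 receptor antagonist, was well expressed and not called (0.064).

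**Figure D2:**
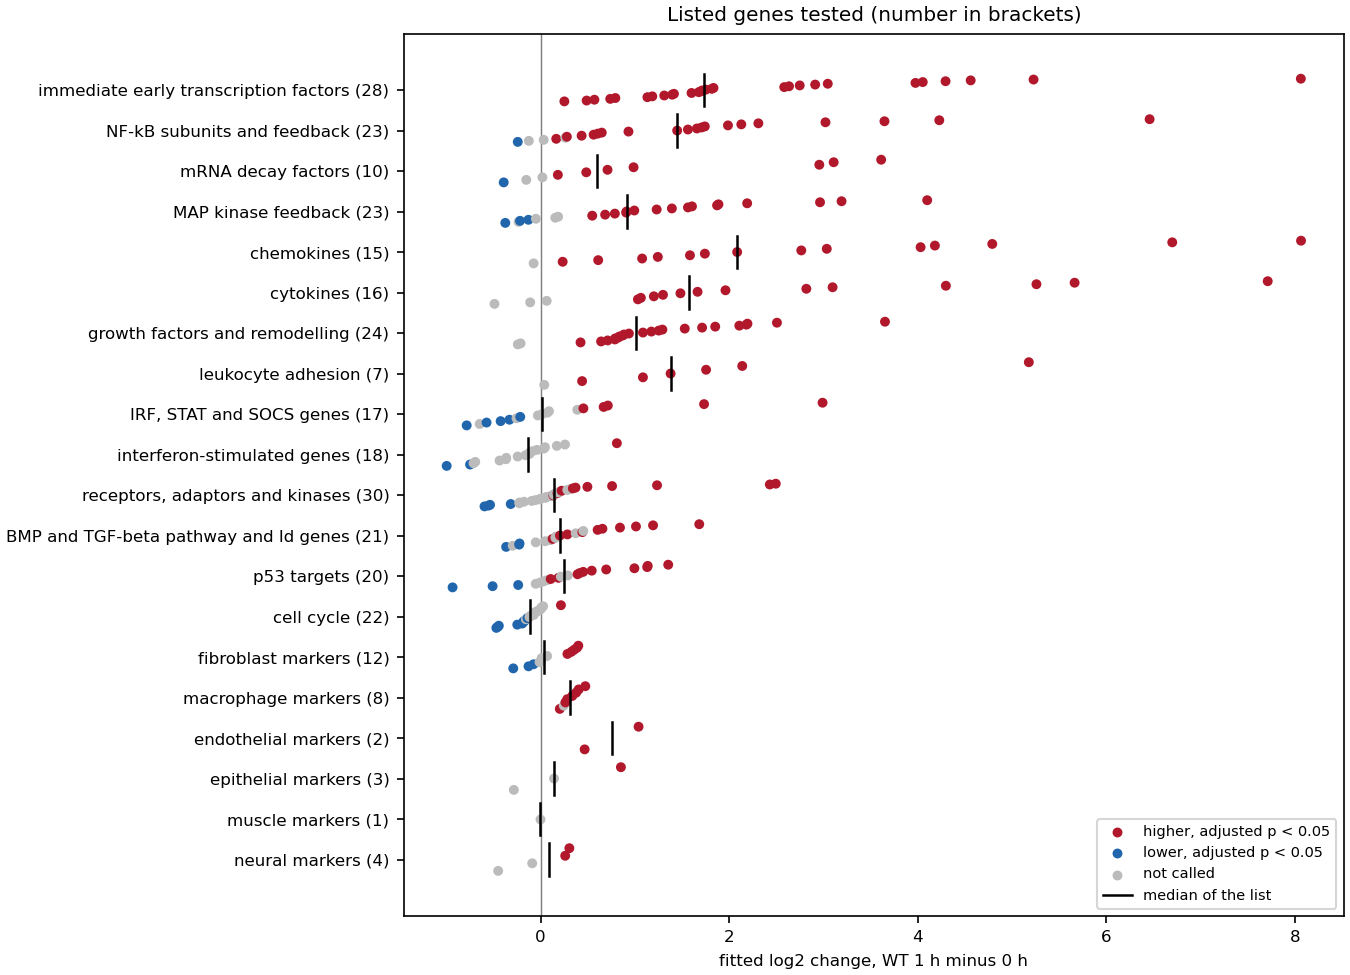
Fitted log2 change at 1 h in WT of each listed gene that was tested, 1 row a list, red for called higher, blue for called lower and grey for not called, with a black bar at the median. The immediate early, NF-kB, chemokine, cytokine, growth factor and adhesion rows lie to the right of 0, and the interferon-stimulated and cell cycle rows lie around or below it.

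Growth factors and secreted genes of tissue remodelling were called higher for 22 of 24 tested genes, and none lower (median log2 change 1.01). Over all genes tested the shares were 15.2% and 13.7%. Ptgs2, which encodes the prostaglandin synthase COX-2, had 367, 364 and 378 CPM at 0 h and 2183, 1817 and 2358 CPM at 1 h (log2 change 2.51, SE 0.047, edgeR adjusted p = 4.82e-20). Ereg, an EGF receptor ligand, had 26.9, 23.2 and 22.5 CPM at 0 h and 371, 312 and 239 CPM at 1 h (log2 change 3.65, SE 0.0603, edgeR adjusted p = 6.62e-21), and Hbegf, another, had 133, 132 and 133 CPM at 0 h and 425, 401 and 484 CPM at 1 h (log2 change 1.71, SE 0.0463, edgeR adjusted p = 3.16e-17). Tgfa (-0.21) and Fgf2 (-0.24) were not called.

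Of 7 genes tested from the leukocyte adhesion list, 6 were called higher (median log2 change 1.38), against 15.2% of all genes. The list also held F3 and Sdc4, which are not leukocyte adhesion molecules in the narrow sense. F3, which encodes tissue factor, had 121, 124 and 126 CPM at 0 h and 643, 473 and 529 CPM at 1 h (log2 change 2.14, SE 0.0596, edgeR adjusted p = 5.61e-17). Icam1, a ligand of leukocyte integrins, had 11.4, 10.7 and 11 CPM at 0 h and 47.3, 41.9 and 24.8 CPM at 1 h (log2 change 1.75, SE 0.13, edgeR adjusted p = 7.19e-10). Sele, which encodes E-selectin, had 0.955, 1.04 and 0.227 CPM at 0 h and 43.7, 30.6 and 6.76 CPM at 1 h (log2 change 5.18, SE 0.189, edgeR adjusted p = 6.28e-15), and its LPS library was the lowest at both times. Sele is known for endothelial cells, whose defining genes Pecam1, Cdh5 and Cldn5 stayed at or below 1.02 CPM. Of 5 endothelial markers 2 were tested, Kdr (0.47) and Tek (1.04), and both were called higher, Tek after passing the filter through its 1 h libraries alone. Their summed level over the 5 went from 7.97 to 10.9 CPM at 0 h to 11.5 to 14.7 CPM at 1 h, and the part of such cells in the Sele result was not tested.

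Receptors and adaptors of the 3 stimuli changed less: of 30 tested, 10 were called higher and 4 lower, with a median log2 change of 0.14, against 15.2% and 13.7% of all genes. Tlr2, the receptor for bacterial lipopeptides, had 6.79, 6.66 and 8.28 CPM at 0 h and 30.1, 37.9 and 50.6 CPM at 1 h (log2 change 2.43, SE 0.109, edgeR adjusted p = 2.46e-13). Map3k8, the kinase Tpl2 that links IKK to ERK, had 2.12, 1.83 and 3.18 CPM at 0 h and 19.1, 12.8 and 9.05 CPM at 1 h (log2 change 2.49, SE 0.22, edgeR adjusted p = 2.18e-08). Cd14, the co-receptor that hands LPS to Tlr4, had 10.5, 11.9 and 13.6 CPM at 0 h and 15.6, 26.9 and 44 CPM at 1 h (log2 change 1.23, SE 0.14, edgeR adjusted p = 9.72e-07). Tlr4 rose slightly (0.34), and Il1r1 (0.099), Tnfrsf1a (-0.095) and Ly96 (0.31) were not called. The adaptors Ticam1, Tradd and Tirap and the TAK1 partner Tab1 fell by 0.6, 0.54, 0.32 and 0.55 on the log2 scale.

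Interferon genes did not move as a block at 1 h. Irf1, which NF-kB induces directly, had 19.3, 18.3 and 16.7 CPM at 0 h and 199, 169 and 75.4 CPM at 1 h (log2 change 2.99, SE 0.116, edgeR adjusted p = 1.92e-14). Of the 17 tested interferon regulatory factors, STAT and SOCS genes, 5 were called higher and 5 lower (median log2 change 0.017), against 15.2% and 13.7% of all genes. Cish had 1.91, 1.96 and 1.93 CPM at 0 h and 6.94, 9.81 and 3.48 CPM at 1 h (log2 change 1.73, SE 0.246, edgeR adjusted p = 1.92e-05), and Socs1, Socs3 and Irf5 were the other rises (0.67, 0.45 and 0.71). Among the genes called lower, Stat2, Irf9, Irf2 and Irf8 fell by 0.57, 0.33, 0.42 and 0.78. The number called lower was 2 without the IL-1b series, 6 without the TNF series and 0 by DESeq2. Ifnb1 had 2 counts in the 6 libraries and was not tested.

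Of 25 listed interferon-stimulated genes 18 were tested, 1 was called higher and 2 lower, and their median log2 change was -0.14. That is 1 of 18 called higher against 15.2% of all genes, and 2 of 18 called lower against 13.7%. Gbp2, a GTPase of host defence, had 3.93, 5.75 and 4.54 CPM at 0 h and 9.33, 9.81 and 5.87 CPM at 1 h (log2 change 0.81, SE 0.18, edgeR adjusted p = 0.00193). Usp18 and Ifit3 were the genes called lower (-0.997 and -0.75), each at no more than 4.18 CPM. Without the IL-1b series, none of the 3 passed, and Ifit3 passed under no left-out series. Ifit2 (0.046), Rigi (-0.12), Isg15 (-0.24) and Bst2 (-0.039) were not called. Gbp5 and Psmb9 were not matched to an ID.

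Genes of the BMP and TGF-beta pathway were called higher for 10 of 21 and lower for 3 (median log2 change 0.21), against 15.2% and 13.7% of all genes. The share called lower was thus near that of all genes. Id1, an inhibitor of basic helix-loop-helix factors and a BMP target, had 26.1, 27.2 and 24.9 CPM at 0 h and 82.5, 79 and 89.3 CPM at 1 h (log2 change 1.68, SE 0.0679, edgeR adjusted p = 3.71e-14). Id3 had 113, 114 and 113 CPM at 0 h and 204, 181 and 224 CPM at 1 h (log2 change 0.84, SE 0.0511, edgeR adjusted p = 4.73e-11). The 3 series lay close together for both, and no library at 1 h overlapped one at 0 h, which the call itself favours. Skil and Smad7, inhibitors of SMAD signalling, rose by 1.19 and 1.01 on the log2 scale. Smad6, Smad3 and Ski fell by 0.37, 0.23 and 0.22, and the ligands Bmp4 (-0.052) and Tgfb1 (0.16) were not called.

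Of 20 p53 target genes, 11 were called higher and 3 lower (median log2 change 0.25), against 15.2% and 13.7% of all genes, and here too the share called lower was near that of all genes. Plk2 had 409, 407 and 421 CPM at 0 h and 963, 853 and 903 CPM at 1 h (log2 change 1.13, SE 0.0379, edgeR adjusted p = 1.7e-15), and Plk3 rose by 1.35. Both polo-like kinases are also immediate early genes of growth factor responses. Mdm2, the p53 ubiquitin ligase, had 185, 182 and 178 CPM at 0 h and 297, 282 and 306 CPM at 1 h (log2 change 0.7, SE 0.0408, edgeR adjusted p = 2.67e-11), and Cdkn1a, the cell cycle inhibitor p21, had 355, 341 and 348 CPM at 0 h and 535, 482 and 509 CPM at 1 h (log2 change 0.54, SE 0.0364, edgeR adjusted p = 2.56e-10). Bax (0.03), Bbc3 (0.21), Aen (-0.0084) and Phlda3 (0.066) were not called. The fall of Zmat3 was 0.24 on the log2 scale and that of Sesn1 0.51. In the p53KO lines the log2 change was 1.39 for Plk2, 0.51 for Mdm2 and 0.49 for Cdkn1a.

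Of 22 cell cycle genes tested, 9 were called lower and 1 higher, and the other 12 were not called. Their median log2 change was -0.12, against 13.7% called lower and 15.2% higher over all genes, and without the IL-1b series 5 were called lower. Plk1, the mitotic kinase, had 131, 139 and 133 CPM at 0 h and 94.8, 94.3 and 101 CPM at 1 h (log2 change -0.47, SE 0.0469, edgeR adjusted p = 1.47e-07). Cdkn1b, the inhibitor p27, had 49, 54.8 and 50.1 CPM at 0 h and 39.9, 34.3 and 37.4 CPM at 1 h (log2 change -0.45, SE 0.0736, edgeR adjusted p = 8.76e-05). The replication genes Cdc6, Mcm6, Mcm7 and Mcm2 fell by 0.44, 0.2, 0.19 and 0.16. Mki67 (-0.025), Top2a (0.0093) and Cdk1 (0.026) were not called. Ccnd2, a D-type cyclin, was the gene called higher (0.21), a call lost in the fit of all 45 libraries.

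Promoters of 5 of these genes are shown as examples of the motifs that regulators of early inflammatory genes read, and were picked because they hold one. Of the 96 named genes, 65 entered this count, and 23 of the 65 had a kB site and 2, Zfp36 and Dusp5, a CArG box. The named genes left out, Egr1 and Hbegf among them, may hold either motif, so these are not counts over all named genes. The 65 take in genes that fell, and of the 23 A430033K04Rik, Zfp763 and Irf2 fell. A gene with several windows was counted once here, and the share over all genes tested was not counted in this way. Nr4a1, Fosb, Atf3 and Junb had no CArG box in their windows, and Nr4a1 and Fosb had a kB site. NF-kB binds the kB site, and serum response factor binds the CArG box. Below are the 250 bases before the RefSeq start site (assembly GRCm38.p6), 5′ to 3′ on the strand of the gene, in lower case with kB sites and CArG boxes in capitals. The first 3 genes belong to NF-kB control and chemokines, and the last 2 are a decay factor and a MAP kinase phosphatase. Cxcl1 lies at chr5:90890995-90891244 on the plus strand, Nfkbia at chr12:55492648-55492897 on the minus strand and Tnfaip3, by the first of its windows, at chr10:19015411-19015660 on the minus strand. Zfp36 lies at chr7:28379229-28379478 on the minus strand and Dusp5 at chr19:53528895-53529144 on the plus strand.
Cxcl1: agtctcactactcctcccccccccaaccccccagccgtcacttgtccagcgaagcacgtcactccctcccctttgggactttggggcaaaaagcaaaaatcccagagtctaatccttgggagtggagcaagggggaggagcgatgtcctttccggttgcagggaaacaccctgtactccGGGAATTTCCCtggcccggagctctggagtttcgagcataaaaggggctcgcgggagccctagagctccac
Nfkbia: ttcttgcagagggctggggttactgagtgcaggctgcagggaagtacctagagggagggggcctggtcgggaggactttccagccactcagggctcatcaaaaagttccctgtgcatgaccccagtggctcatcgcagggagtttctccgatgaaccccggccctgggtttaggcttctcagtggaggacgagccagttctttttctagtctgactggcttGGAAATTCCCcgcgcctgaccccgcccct
Tnfaip3: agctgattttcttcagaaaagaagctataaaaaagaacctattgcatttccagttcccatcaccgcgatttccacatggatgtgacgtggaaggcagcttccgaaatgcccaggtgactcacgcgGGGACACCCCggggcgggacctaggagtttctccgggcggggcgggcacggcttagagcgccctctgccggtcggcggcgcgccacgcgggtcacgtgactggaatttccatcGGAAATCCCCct
Zfp36: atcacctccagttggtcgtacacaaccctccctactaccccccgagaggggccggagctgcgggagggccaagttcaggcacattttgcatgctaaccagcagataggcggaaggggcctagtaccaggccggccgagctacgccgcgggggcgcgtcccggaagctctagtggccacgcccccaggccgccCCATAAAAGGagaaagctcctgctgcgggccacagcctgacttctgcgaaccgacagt
Dusp5: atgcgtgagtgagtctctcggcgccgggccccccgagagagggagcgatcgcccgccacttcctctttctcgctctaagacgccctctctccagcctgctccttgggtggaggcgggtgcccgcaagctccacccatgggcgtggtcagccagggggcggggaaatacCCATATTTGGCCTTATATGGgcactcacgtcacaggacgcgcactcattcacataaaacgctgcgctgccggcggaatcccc
The capitals of Cxcl1 hold 2 kB matches that overlap by all but 1 base, those of Nfkbia 1 and those of Tnfaip3 2. Zfp36 has 1 CArG box and Dusp5 has 2 in direct sequence.

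Windows of 300 bases, 250 before and 50 after the start site, were then searched on both strands for 5 motifs. RefSeq windows were matched by symbol for 9590 of the genes tested (12338 windows). A kB site lay in 21.88% of the 192 windows of genes at least 2-fold higher, in 8.33% of the 108 windows of genes at least 2-fold lower, and in 10.5% of the windows of all genes tested. It lay in 53.85% of the 26 windows of the NF-kB list and 50.0% of the 10 of the chemokine list. It also lay in 24.14% of the 29 windows of the immediate early list. A CArG box lay in 17.24% of those 29 windows, 3.65% of those of genes at least 2-fold higher and 1.34% of all. The AP-1 motif TGANTCA was in 11.46% against 5.11%, the CRE motif TGACGTCA in 7.81% against 3.03% and TATAAA in 19.27% against 7.06%, for genes at least 2-fold higher against all tested. Over all 32851 windows of the table the shares were 8.46% for the kB site, 1.63% for the CArG box, 7.81% for AP-1, 1.79% for CRE and 13.62% for TATAAA. The kB site and CArG box can each match both strands at 1 place and were counted once a window. A match is a run of letters and says nothing of binding.

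The large falls at 1 h were a different kind of gene. Among the 15 largest named falls, 8 were numbered zinc finger (Zfp) genes, and several others encode regulators of chromatin or transcription. Mn1, a transcriptional co-regulator (chr5:111846382-111886053 in mm9), had 41.5, 53 and 41.7 CPM at 0 h and 11.6, 15.5 and 12.5 CPM at 1 h (log2 change -1.79, SE 0.0867, edgeR adjusted p = 9.81e-13). Its 3 series fell alike. Sall2, a zinc finger transcription factor, had 31.3, 32.3 and 29.6 CPM at 0 h and 8.76, 13 and 10.3 CPM at 1 h (log2 change -1.57, SE 0.108, edgeR adjusted p = 4e-10). Cbx2, a Polycomb subunit, had 9.23, 11.2 and 11 CPM at 0 h and 2.5, 4.32 and 2.49 CPM at 1 h (log2 change -1.82, SE 0.182, edgeR adjusted p = 1.59e-07). Zfp60 had 11.6, 12.9 and 12.7 CPM at 0 h and 4.32, 5.16 and 3.38 CPM at 1 h (log2 change -1.57, SE 0.159, edgeR adjusted p = 1.9e-07). Zfp39 had 6.16, 5.09 and 5.44 CPM at 0 h and 0.796, 1.16 and 1.79 CPM at 1 h (log2 change -2.13, SE 0.268, edgeR adjusted p = 4.09e-06). In none of the 5 did a 1 h library reach a 0 h library, which their choice as large called falls favours.

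The largest fitted falls were those of A430033K04Rik, with 4.56, 5.75 and 5.67 CPM at 0 h and 0.796, 1.5 and 0.895 CPM at 1 h (log2 change -2.38, SE 0.269, edgeR adjusted p = 9.22e-07), and 9930012K11Rik, with 3.93, 3.66 and 3.74 CPM at 0 h and 0.569, 0.998 and 0.696 CPM at 1 h (log2 change -2.36). The second passed the filter on low counts through its 0 h libraries alone, so its fall is in part a condition of being tested and no test is given. Zfp41, Zfp61, Zfp324, Zfp599, Zfp763 and Zfp775 fell by 1.78, 1.85, 1.55, 1.61, 1.8 and 1.67 on the log2 scale. Map10, which encodes a microtubule-associated protein, fell by 1.61 and Zswim3 by 1.54.

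All genes named Zfp and a number, other than the Zfp36 decay factors, were then counted, a group chosen after the falls were seen and therefore given with no test. Of 309 tested, 159 (51.5%) were called lower and 11 (3.56%) higher, against 12.8% lower and 15.5% higher among the other 12209 genes. They made up 47 of the 130 genes at least 2-fold lower and 0 of the 214 at least 2-fold higher. Their median log2 change was -0.38 in the fit, and -0.43, -0.35 and -0.33 in the 3 series. Most such genes encode proteins with tandem C2H2 fingers, many with a KRAB repressor domain. Their median level of 7.98 CPM was below the 29.8 CPM of the other genes. Many are paralogs with like sequences, and reads that align to several copies are not among the gene counts.

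The stimuli were then set against each other within WT, each with 1 library a time, in a fit of all 45 libraries that takes its spread from the p53KO pairs. Of 13851 genes, the 1 h change in the LPS series was above the mean of the IL-1b and TNF series for 3 (0.0217%) and below it for 3 (0.0217%). The change in the IL-1b series was above that in the TNF series for 1 gene (0.00722%) and below it for 0 (0%). At an unadjusted p under 0.05 the counts were 411 and 296 genes, fewer than that limit alone would give with no true difference. DESeq2 called 7 and 1 at the adjusted limit. The precision of a WT library rests on the assumption that it varies like the p53KO pairs. A gene that did not pass is not shown to respond alike.

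The genes with weaker LPS responses at 1 h are known NF-kB targets. Ccl2 changed by 4.54, 4.39 and 3.06 on the log2 scale in the 3 series, a difference of LPS from the cytokines of -1.41 (SE 0.206, edgeR adjusted p = 0.00264). Vcam1, the adhesion molecule for VLA-4, had 135, 124 and 142 CPM at 0 h and 373, 322 and 188 CPM at 1 h, and its difference was -1.02 (SE 0.131, edgeR adjusted p = 0.000599). Birc3 had 15.2, 15.1 and 15.3 CPM at 0 h and 65.1, 61.5 and 23.7 CPM at 1 h, and its difference was -1.43 (SE 0.249, edgeR adjusted p = 0.0197). In each, the LPS library at 1 h lay between the 0 h libraries and the other 2 at 1 h. Csf1, Irf1 and Tnfaip3 had differences of -0.76, -1.11 and -1.38 that did not pass (edgeR adjusted p = 0.342, 0.342 and 0.794).

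The genes with stronger LPS responses were Tnf, Ccl3 and Tnfsf9. Tnf had 1.27, 0.784 and 1.13 CPM at 0 h and 4.21, 8.48 and 116 CPM at 1 h, and its difference was 4.1 (SE 0.764, edgeR adjusted p = 0.0347). Ccl3, a chemokine of myeloid cells, had 1.38, 1.31 and 1.47 CPM at 0 h and 1.71, 0.998 and 15.4 CPM at 1 h, and its difference was 3.42 (SE 0.623, edgeR adjusted p = 0.0307). Tnfsf9, which encodes the ligand of 4-1BB, had 7.32, 6.01 and 7.03 CPM at 0 h and 8.53, 9.81 and 32.8 CPM at 1 h, and its difference was 1.76 (SE 0.271, edgeR adjusted p = 0.00421). Ccl3 and Tnfsf9 were called in the pooled WT response (2.08 and 1.3), but without the LPS series their log2 changes were 0.043 and 0.42 and neither passed (edgeR adjusted p = 0.964 and 0.0974). The pooled calls of both thus rest on the LPS series. Cd83, a marker of activated dendritic and B cells, had 0.425, 0.261 and 0.113 CPM at 0 h and 2.73, 9.65 and 26.2 CPM at 1 h. It passed the filter on low counts through its 1 h libraries alone, so the change is given without a test, and its difference of 3.8 did not pass (edgeR adjusted p = 1).

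Other cytokines of myeloid cells, not tested because too few libraries reached 1 CPM, were also highest at 1 h in the LPS series. Il1b had 0 counts in each library at 0 h and 0.455, 1.5 and 9.85 CPM at 1 h. Osm, an IL-6 family cytokine, had 0.318, 0.392 and 0.34 CPM at 0 h and 0.796, 0.166 and 4.28 CPM at 1 h. Macrophage markers were measured beside these genes. Of 9 listed, 8 were tested and 7 were called higher at 1 h (median log2 change 0.31), against 15.2% of all genes. Lyz2 had 262, 248 and 265 CPM at 0 h and 352, 335 and 323 CPM at 1 h. Their summed level was 384 to 396 CPM at 0 h and 477 to 523 CPM at 1 h, and was lowest at 1 h in the LPS series. No defining marker was at 0, and Cd74 stayed at or below 1.02 CPM. The number called was 1 without the IL-1b series, 4 without either other series, 0 in the fit of 45 libraries and 1 by DESeq2. The part of macrophages in the Tnf, Ccl3, Cd83 and Il1b results was not tested. In bulk RNA, more cells of a type and more RNA per cell cannot be told apart.

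**Figure D3:**
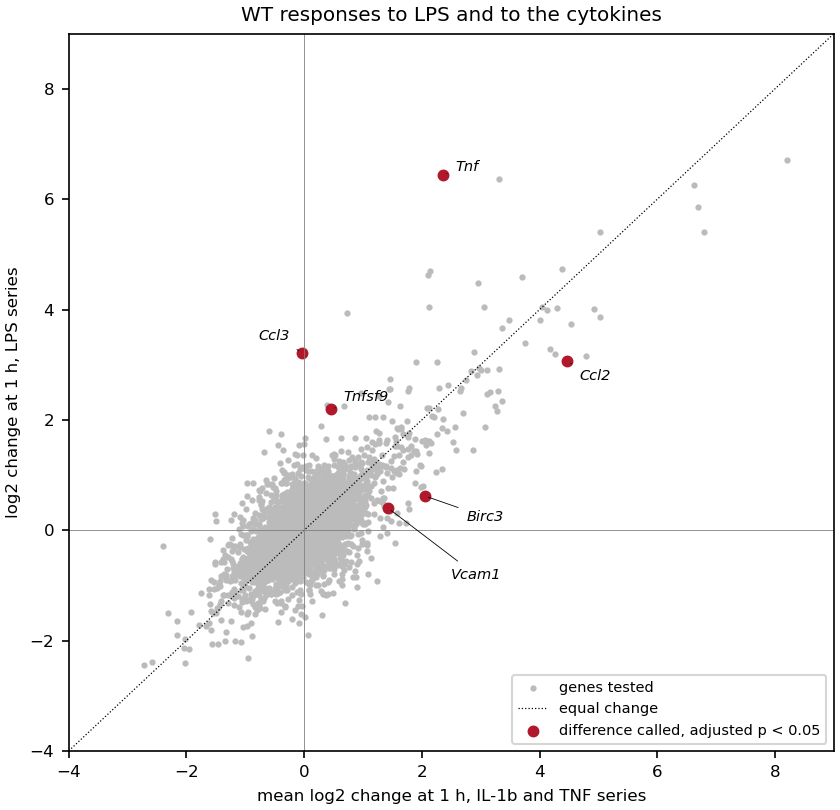
Log2 change at 1 h in the WT LPS series against the mean of the IL-1b and TNF series, for the 12518 genes tested (grey) and the 6 genes whose difference passed an adjusted p of 0.05 (red). Tnf, Ccl3 and Tnfsf9 lie above the dotted line of equal change, and Ccl2, Birc3 and Vcam1 below it.

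Nfkbiz was the gene that separated IL-1b from TNF. It changed by 4.34, 2.37 and 3.67 on the log2 scale in the 3 series, and the difference of IL-1b from TNF was 1.98 (SE 0.257, edgeR adjusted p = 0.000703). The TNF library at 1 h was the lowest of the 3 and still above every 0 h library. Nfkbia, an inhibitor of the same family, differed between the same series by 0.45, which did not pass.

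The other WT times place the 1 h response within the series. These values share their 0 h libraries with the 1 h comparison and are a description of single libraries. The genes were chosen by their 1 h values, so an extreme at 1 h is in part a condition of the choice. Of the 214 genes at least 2-fold higher at 1 h, the mean log2 change over the 3 series was largest at 1 h for 128, at 3 h for 65, at 8 h for 15 and at 0.5 h for 6. Their median was 0.55 at 0.5 h, 1.58 at 1 h, 1.18 at 3 h and 0.50 at 8 h. Of the 130 genes at least 2-fold lower, 120 were lowest at 1 h and 10 at 3 h. Their median was -0.22 at 0.5 h, -1.16 at 1 h, -0.0024 at 3 h and 0.11 at 8 h. By 3 h their median was back at the 0 h level.

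Single genes showed different courses. Nr4a1 changed by 3.5, 2.94 and 2.73 at 0.5 h and by -0.42, -0.75 and 0.072 at 3 h, so its rise was over by 3 h. Egr1 was below its 0 h level at 3 h (-1.79, -1.49 and -1.3). Ccl2 changed by 2.35, 2.08 and 0.32 at 0.5 h and 5.07, 4.92 and 5.52 at 3 h, when the LPS series was the highest. Nfkbia changed by 4.08, 3.45 and 1.01 at 0.5 h, least in the LPS series, and by 4.53, 4.08 and 4.03 at 1 h. Vcam1 reached 1.12, 1.95 and 1.94 at 3 h, where the LPS series was no longer the lowest. Il6 reached 5.78, 2.66 and 6.01 at 3 h, with TNF the lowest. Zfp60 changed by -1.38, -1.29 and -1.85 at 1 h and stood above 0 h at 3 h (0.6, 0.5 and 0.62), while Mn1 was still low at 3 h (-1.81, -1.51 and -2.32).

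**Figure D4:**
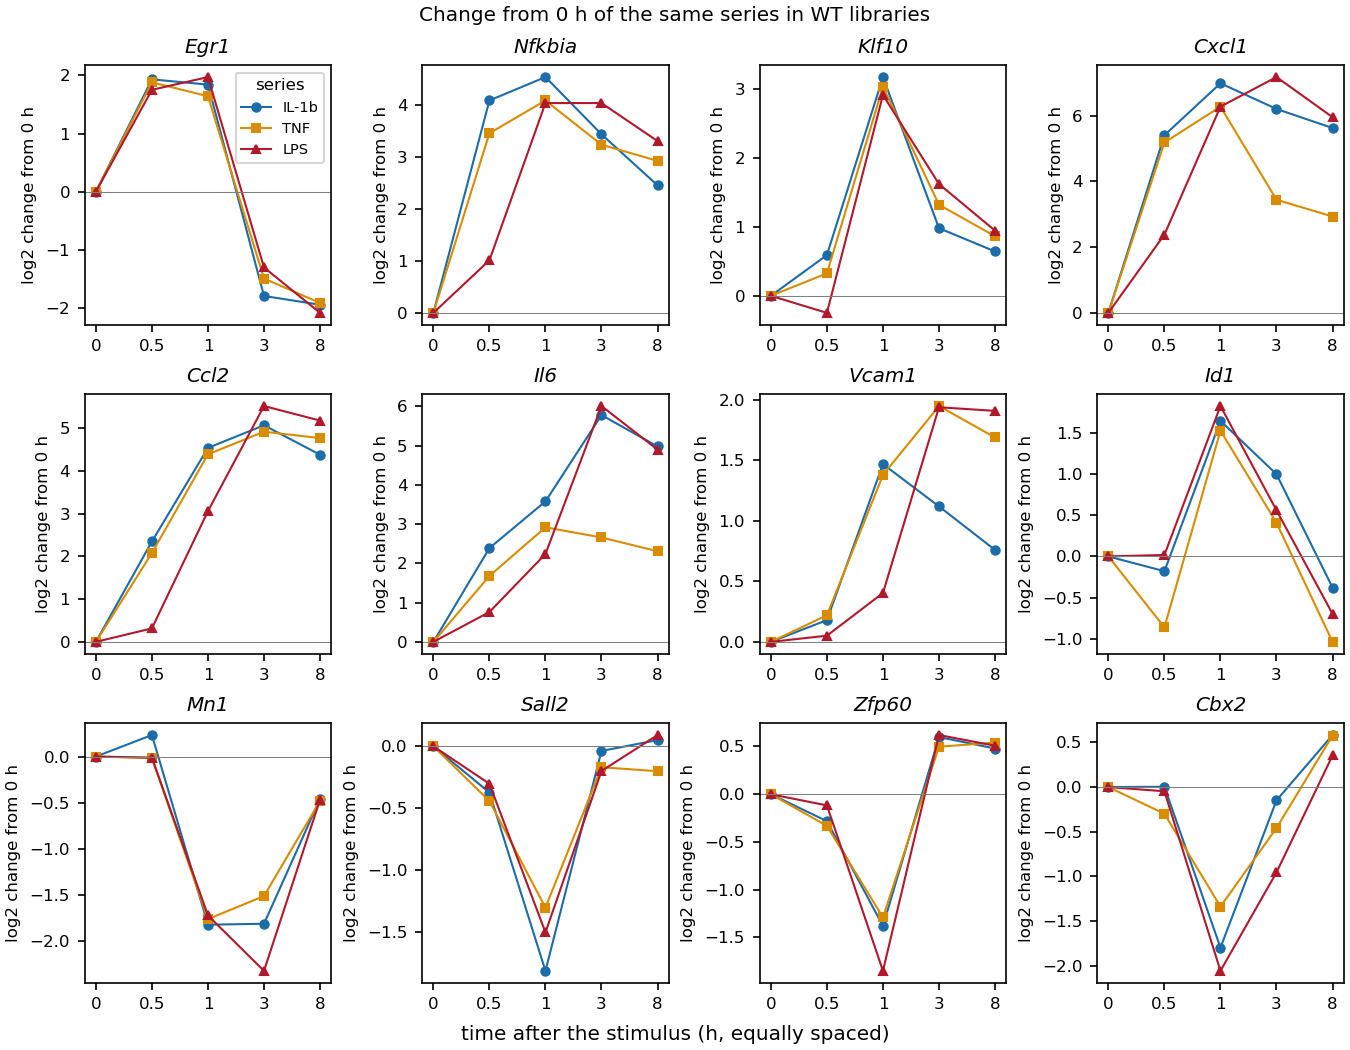
Log2 change from the 0 h library of the same series in WT libraries at 0.5, 1, 3 and 8 h (equally spaced on the axis) for 12 genes, 1 line a stimulus. Klf10 and Id1 peak at 1 h, Nfkbia and Ccl2 lag in the LPS series at 0.5 h, and Sall2, Zfp60 and Cbx2 are lowest at 1 h in all 3 series.

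The same 1 h response was measured in the p53KO lines, with 6 libraries at 1 h against 6 at 0 h. Of 13851 genes, 1366 (9.86%) were higher and 1342 (9.69%) lower in p53KO. Of the 214 genes at least 2-fold higher in WT, 181 were called higher in p53KO and 209 had a value above 0. Of the 130 lower in WT, 119 were called lower and 129 were below 0. The Zfp genes fell in p53KO by a median of 0.36 on the log2 scale, with 170 called lower. The response itself differed between the genotypes for 102 genes, with WT above p53KO for 73 (0.527%) and below for 29 (0.209%), of 1337 genes at an unadjusted p under 0.05. Without KO-1 the count was 55, and without 1 stimulus series it was 41 to 53. WT is 1 line here, so genotype and line cannot be told apart.

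Among the 1907 genes called higher in WT, the WT response was above that of p53KO for 63 and below it for 14. Over all 13851 genes the counts were 73 (0.527%) and 29 (0.209%). The 1907 were chosen by a rise in the same WT libraries, so an excess on the WT side is in part a condition of the choice. Klf10 had 25.3, 27.2 and 31.3 CPM at 0 h and 191, 247 and 257 CPM at 1 h in WT (lowest, median and highest of 3), and 33.1, 34.6 and 36.4 CPM and 48.8, 120.0 and 129 CPM in p53KO (6 libraries a time). The WT libraries at 1 h lay above every p53KO library at 1 h, and the difference of the log2 changes was 1.63 (SE 0.11, edgeR adjusted p = 1.31e-09). Id1 had 24.9 to 27.2 CPM at 0 h and 79 to 89.3 CPM at 1 h in WT, and 16.5 to 22 CPM and 18.8 to 35.2 CPM in p53KO, where its groups overlapped. The difference was 1.34 (SE 0.119, edgeR adjusted p = 8.59e-08). Id3 rose by 0.84 in WT and had a log2 change of -0.0049 in p53KO, a difference of 0.84 (SE 0.0815, edgeR adjusted p = 4.21e-07).

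Kctd11, an adaptor of a Cullin-3 ubiquitin ligase, had 70.3, 62.3 and 59.8 CPM at 0 h and 331, 312 and 274 CPM at 1 h in WT and 34.1 to 40.6 CPM at 0 h and 65 to 95.1 CPM at 1 h in p53KO, a difference of 1.16 (SE 0.0981, edgeR adjusted p = 4.56e-08). Bhlhe40, a transcriptional repressor, had 106, 97.2 and 109.7 CPM at 0 h and 394, 347 and 297 CPM at 1 h in WT and 129 to 139 CPM and 129 to 234 CPM in p53KO, a difference of 1.28 (SE 0.0947, edgeR adjusted p = 4.34e-09). Bcl3, a nuclear IkB protein, had 8.07, 7.57 and 7.14 CPM at 0 h and 31.1, 33.8 and 12.5 CPM at 1 h in WT and 11.2 to 15.2 CPM and 5.97 to 23.7 CPM in p53KO, a difference of 1.53 (SE 0.164, edgeR adjusted p = 2.49e-06). Cxcl10 reached 32.1 to 57.3 CPM at 1 h in WT and 38.2 to 77.7 CPM in p53KO. Its 0 h levels were 1.81 to 3.18 CPM and 8.77 to 13 CPM, and the difference of the changes was 1.96 (SE 0.207, edgeR adjusted p = 1.98e-06). The 1 h levels thus overlapped and the starting levels did not.

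Egr1 went the other way. It had 347 to 377 CPM at 0 h and 1134 to 1365 CPM at 1 h in WT, and 182 to 212 CPM and 1440.0 to 1987 CPM in p53KO, a difference of -1.23 (SE 0.105, edgeR adjusted p = 4.56e-08). Fos and Btg2 also changed less in WT, by -1.51 and -0.88 relative to p53KO (edgeR adjusted p = 0.000197 and 0.00041). Genes with a larger response in WT, 0.527% of all genes, numbered 6 of 21 in the BMP and TGF-beta list and 4 of 17 among interferon regulatory factors, STAT and SOCS genes. They numbered 3 of 16 cytokines, 3 of 7 genes of the adhesion list and 1 of 15 chemokines. The NF-kB list had 3 of 23 and the p53 targets 1 of 20. None of these lists had a gene with a smaller response, against 0.209% of all genes. The MAP kinase and receptor kinase feedback list had 2 larger and 2 smaller of 23. The growth factor list had 2 and 2 of 24, and the decay factors 1 and 1 of 10. The interferon-stimulated, receptor and cell cycle lists had 0 of either. The 3 of the adhesion list were F3, Sdc4 and Vcam1. Of the 28 immediate early factors, 3 had a larger and 7 a smaller response in WT, against 0.527% and 0.209% of all genes. These lists were not tested against each other. Tnfaip3, Nfkbie, Lif and Irf1 changed more in WT, by 0.944, 1.245, 1.301 and 1.01 (edgeR adjusted p = 0.0265, 0.0236, 0.00034 and 0.00031). Cxcl1, Nfkbia and Il6 had differences of -0.33, 0.17 and -0.24 that did not pass (edgeR adjusted p = 0.947, 0.719 and 0.839).

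**Figure D5:**
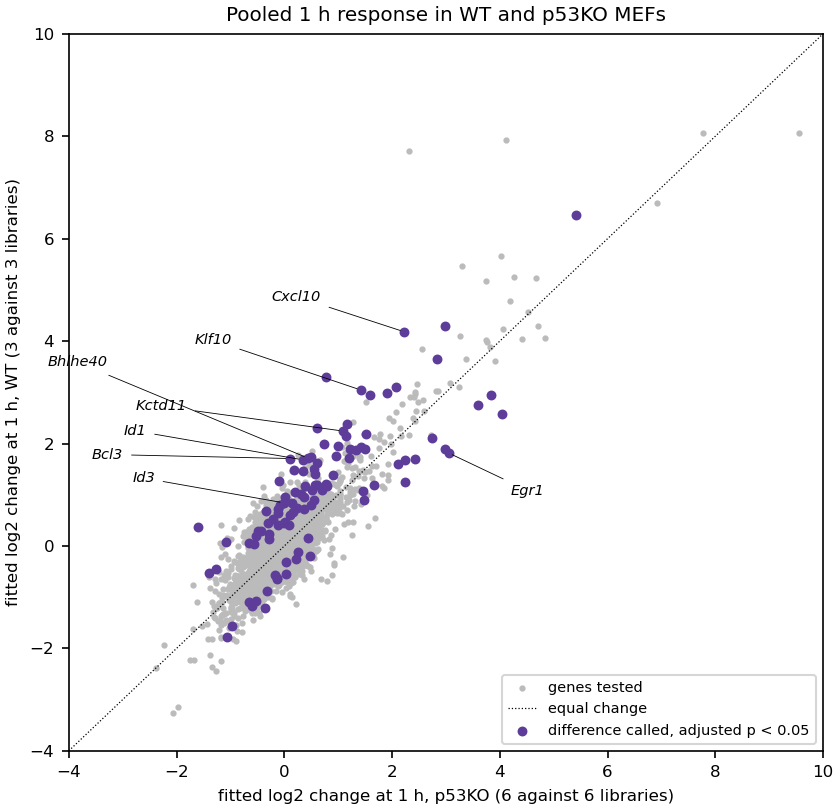
Fitted log2 change at 1 h in WT (6 libraries) against that in p53KO (12 libraries, from the fit of 45), for the genes tested in WT (grey) and those whose difference between genotypes passed an adjusted p of 0.05 (purple). The 8 labelled genes have the smallest adjusted p: 7 lie above the dotted line of equal change, and Egr1 below it.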

How the data were processed

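RNA-seq of 45 libraries was deposited as counts of reads per Ensembl gene, not normalized, 1 column a library. The tools STAR, featureCounts and DESeq and the build mm9 are given, per the submitters' processing notes, with no versions; the annotation release and strand setting are not given in the sources used here. The deposited gene length equals the genomic span, so whether introns were counted is open, and reads of overlapping genes may be shared. The 5 categories that name no gene held 24.65% of all counts (23.7 to 25.1% in the 6 WT libraries) and were left out. GENCODE M21 named 32919 of 37991 IDs, and RefSeq promoters were matched by symbol.

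Genes with at least 1 CPM in 3 of the 6 libraries entered edgeR 4.0.16 (R 4.3.3): TMM scaling (0.963 to 1.04), quasi-likelihood test, series as a block, 2 residual and 18 prior degrees of freedom, Benjamini-Hochberg adjusted p under 0.05, and SE as the log2 change over the root of F. Stimuli and genotypes were contrasts of a fit of 45 libraries in 30 groups (1 CPM in 2 libraries, 15 residual degrees of freedom), in which single WT libraries are assumed to vary like p53KO pairs. The log2 values of a series used a prior count of 2. Floors (3 counts) and intervals (95%) cover counting error only. The tests were checked on simulated counts.

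The pairing comes from the series labels. Over 9112 genes, deviations of the 0 h and 1 h libraries of a series from their group means correlated at 0.14 (IL-1b), 0.352 (TNF) and 0.209 (LPS). Between different series the correlations ran from -0.285 (LPS 0 h with TNF 1 h) to 0.103 (LPS 0 h with IL-1b 1 h). Named genes were the 15 largest rises and falls with a mean of at least 2 CPM and 1 direction in 3 series, up to 5 called genes a list by adjusted p, and the 8 smallest adjusted p of each contrast, and other list genes beside their list's count. The members and lists were chosen with earlier results of these data known. Alternatives were DESeq2 1.42.0, its size factors, no filter, no block, all 45 libraries, a summed control, a 2-fold limit and left-out series or lines.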

Additional observations from a re-analysis of the deposited data

Results flagged for a closer look

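Differences between stimuli and between genotypes in the WT 1 h response are listed here because a test of the difference itself passed. They are differences of log2 changes from edgeR's quasi-likelihood fit of 45 libraries, and the causes were not tested.

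LPS minus the mean of IL-1b and TNF in WT was -1.41 for Ccl2 (SE 0.206, adjusted p = 0.00264), -1.43 for Birc3 (SE 0.249, adjusted p = 0.0197) and -1.02 for Vcam1 (SE 0.131, adjusted p = 0.000599). It was 4.1 for Tnf (SE 0.764, adjusted p = 0.0347), 3.42 for Ccl3 (SE 0.623, adjusted p = 0.0307) and 1.76 for Tnfsf9 (SE 0.271, adjusted p = 0.00421). By DESeq2 the Tnfsf9 difference did not pass (adjusted p = 0.0877). IL-1b minus TNF was 1.98 for Nfkbiz (SE 0.257, adjusted p = 0.000703).

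The pooled WT response minus that of p53KO was 1.63 for Klf10 (SE 0.11, adjusted p = 1.31e-09), 1.28 for Bhlhe40 (SE 0.0947, adjusted p = 4.34e-09), 1.16 for Kctd11 (SE 0.0981, adjusted p = 4.56e-08) and -1.23 for Egr1 (SE 0.105, adjusted p = 4.56e-08). It was 1.34 for Id1 (SE 0.119, adjusted p = 8.59e-08), 0.842 for Id3 (SE 0.0815, adjusted p = 4.21e-07), 1.96 for Cxcl10 (SE 0.207, adjusted p = 1.98e-06) and 1.53 for Bcl3 (SE 0.164, adjusted p = 2.49e-06). These 8 passed without either p53KO line and without each series in turn.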

How the results depend on the processing

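The counts of genes called at 1 h in WT depended on the test more than on the scaling. The 1907 genes called higher became 681 with the DESeq2 Wald test, 958 with all 45 libraries and 214 with a 2-fold limit, and 1132 to 1784 when a series was left out (fewest without IL-1b). The 1716 called lower became 327, 1026 and 130, and 870 to 1575. The share of calls that were higher was 52.6%, against 67.6% by DESeq2 and 48.3% with all 45 libraries. Of the 214 and 130 genes called with at least 2-fold changes, 172 and 69 were called by DESeq2, and 205 and 116 with all 45 libraries. With no replicate block the counts were 1397 and 1246. A replicate block for the p53KO line gave 14 genes in place of 6 for LPS against the cytokines, 1 as before for IL-1b against TNF, 178 in place of 102 for WT against p53KO, and 3205 in place of 2708 for p53KO. With no filter on low counts these contrasts gave 30, 9 and 208 genes. Leaving out a p53KO line or a series gave 41 to 88 genes for WT against p53KO and 1341 (without KO-1) to 2054 for p53KO. No direction reversed in the results and alternatives run. Among the genes recomputed singly under each alternative, calls were lost in at least 1 for Ccl3, Tnfsf9, Gbp2, Usp18, Ifit3, Irf2, Irf5, Cdc6, Stat2 and Ccnd2. The lower call of Traf2 was lost under 7 alternatives, among them each left-out series, and the other genes named beside a list were recomputed as part of its count. With 2 residual degrees of freedom and 1 WT line, small changes are the least secure, and genes under about 1 CPM could not be tested. The cause of these shifts was not tested.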
